A study of Rattus norvegicus with 4 samples.

Results

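The expression of AMPA receptor genes was examined in poly(A) RNA from primary cultures of rat embryonic hippocampal neurons. The set held the 4 pore subunit genes Gria1, Gria2, Gria3 and Gria4, the auxiliary subunit genes Cacng2, Cacng3, Cacng8 and Cnih2, and the anchoring protein genes Grip1 and Pick1. They were chosen by name in the platform annotation, where each of the 10 genes had 1 probe set, of 14497 named genes and 28826 probe sets in all. The study compared 2 cultures treated with Gld2 shRNA, a short hairpin RNA against the cytoplasmic poly(A) polymerase Gld2 (gene symbol Tent2), with 2 cultures treated with scrambled shRNA, a control hairpin, each on 1 Affymetrix array. All 4 cultures were of the same tissue and stage, and their RNA was eluted from poly(U) Sepharose with heat before labelling. The labels give neither the vector of the hairpins nor the time of treatment, nor whether replicate cultures came from different preparations. The p-values therefore cover only the spread among these 4 cultures, part of which may be technical. In such bulk RNA, fewer cells of a type and less RNA per cell cannot be told apart, and neither can a change in the amount of a transcript and a change in its recovery through its tail.

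AMPA receptors are glutamate-gated cation channels built from GluA subunits, which the Gria genes encode, and they carry most fast excitatory transmission in the hippocampus. GluA2, whose pore codon is changed by RNA editing, keeps receptors that contain it nearly impermeable to calcium. The TARP proteins, encoded by genes of the Cacng family, and the cornichon proteins join the pore subunits, aid their delivery and slow their gating, while PDZ proteins such as GRIP1 and PICK1 hold or recycle receptors through the ends of GluA2 and GluA3. Gld2 lengthens poly(A) tails in the cytoplasm and works with CPEB proteins at synapses.

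The promoters of 7 of the 10 genes were in the RefSeq promoter table of rat assembly GRCr8, each spanning 250 bases before to 50 bases after the annotated start. Gria1, Gria2 and Gria3 had no entry there. Cnih2, the only member with a positive difference, and Cacng2, the auxiliary gene with the smallest p, are shown to set side by side the members at opposite ends of the auxiliary group. The Cnih2 window is chr1:211834388-211834687 on the minus strand and the Cacng2 window is chr7:111577708-111578007 on the minus strand. Capitals mark matches, on either strand, to the GC box GGGCGG in Cnih2 and to the TATA box TATAAA in Cacng2.
Cnih2 promoter: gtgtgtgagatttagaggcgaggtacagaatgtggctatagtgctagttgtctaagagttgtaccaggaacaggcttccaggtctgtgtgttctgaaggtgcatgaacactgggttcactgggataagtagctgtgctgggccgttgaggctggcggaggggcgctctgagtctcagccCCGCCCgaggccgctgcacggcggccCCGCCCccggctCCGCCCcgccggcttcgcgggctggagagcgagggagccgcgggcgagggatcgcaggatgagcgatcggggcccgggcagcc
Cacng2 promoter: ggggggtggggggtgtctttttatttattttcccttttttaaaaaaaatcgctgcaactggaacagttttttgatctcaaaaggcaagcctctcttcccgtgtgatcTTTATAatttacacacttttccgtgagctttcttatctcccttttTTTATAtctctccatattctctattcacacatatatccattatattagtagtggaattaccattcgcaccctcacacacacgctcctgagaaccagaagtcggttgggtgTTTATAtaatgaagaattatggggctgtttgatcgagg
The Cnih2 window had a GC content of 65.3% and 3 GC boxes, the Cacng2 window had a GC content of 39% and 0 GC boxes, and the median over 27457 promoters was 52.3%. The windows of Cacng3, Cacng8, Gria4, Pick1 and Grip1, all with negative differences, had GC contents of 63%, 61.7%, 60.3%, 58.7% and 57%. Cacng3 and Pick1 had 1 GC box each, and Cacng8, Gria4 and Grip1 had 0. The contrast of the printed pair thus does not follow the sign of the differences among the other members. The 3 TATAAA matches of Cacng2 were all on the opposite strand, 2 before the start and 1 after it. A GC box was found in 34.9% of all promoters and TATAAA in 14.3%. A match is a description of the letters and not a test of binding.

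The knockdown was visible in the target and the rest of the array set the background for the AMPA receptor genes. Tent2 had log2 RMA values of 9.50 and 9.35 with Gld2 shRNA, against 10.73 and 10.67 with scrambled shRNA, a log2 difference of -1.28 (standard error 0.0751; limma, adjusted p = 0.000754, by Benjamini-Hochberg over 14497 genes, as for all adjusted p-values here). Differences are Gld2 shRNA minus scrambled shRNA throughout, and the threshold is an adjusted p of 0.05. Over all genes 4.1% passed it, 1.69% higher and 2.41% lower, and centring each array on its median moved the counts of higher and lower genes to 558 and 1367, against 245 and 349 as deposited. That centring moved the median difference over all genes only from -0.02 to -0.04, and why the counts moved so far was not tested. The array medians lay between 8.41 and 8.48. Gld2 shRNA replicate 2 stood farther from both controls, with a median absolute log2 difference of 0.158 and 0.172 over all probe sets, than Gld2 shRNA replicate 1, with 0.105 and 0.109. All 6 pan-neuronal markers were in the top decile of genes by level, as were 5 of the 7 astrocyte markers. The summed linear level of the pan-neuronal markers was 43905 to 44432 with Gld2 shRNA, against 45427 to 45812 with scrambled shRNA.

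Of the 10 AMPA receptor genes, 1 fell, Gria3, 0 rose and 9 did not pass the test, so 1 in 10 was called lower against a background of 2.41%. At an unadjusted p under 0.05, limma gave 4 lower members (Gria3, Gria2, Cacng2 and Gria4) and 0 higher, against 16.2% lower and 9.24% higher over all genes. In 9 members both Gld2 shRNA cultures lay below both scrambled shRNA cultures and in 1, Cnih2, above them, whereas over all genes the groups lay apart in that way in 34.5% and 24% of cases. Differences were below 0 in 9 of the 10 members and in 53.8% of all genes. The median difference of the members was -0.14 on the log2 scale, and the median over all genes was -0.02. The differences ran from -0.33 to 0.11, all small beside the 2.43-fold fall of Tent2. The gap between the nearest cultures of opposite groups was larger than the distance between cultures of the same group in 5 members, Gria1, Gria2, Gria3, Cacng2 and Cnih2. The share of all genes with such a gap was not computed, so whether 5 of 10 is unusual cannot be judged.

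**Figure D1:**
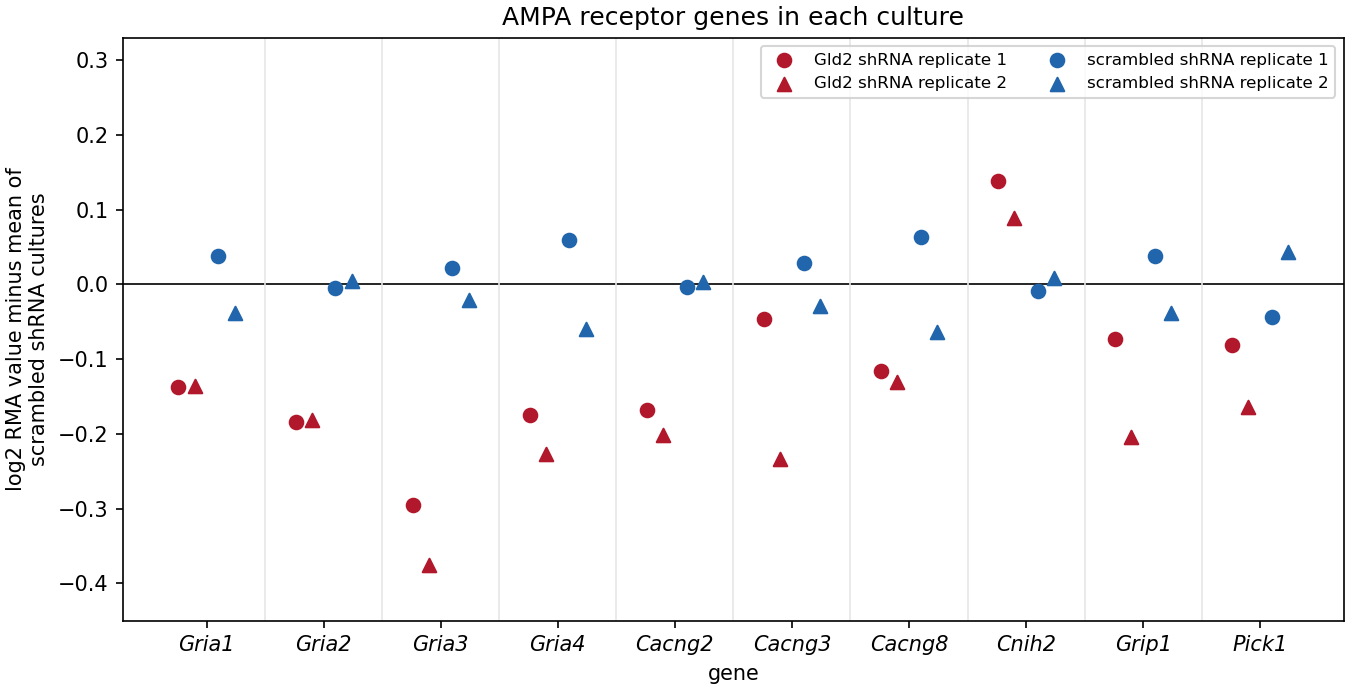
Each point is 1 culture's log2 RMA value minus the mean of the scrambled shRNA cultures for that gene, for the 10 AMPA receptor genes along the horizontal axis, with the shape giving the replicate. The Gld2 shRNA cultures of Gria3 sit at -0.29 and -0.37, and Cnih2 is the gene whose Gld2 shRNA cultures lie above 0, at 0.14 and 0.09.

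Gria3, which encodes GluA3, was the pore subunit gene with the largest difference. Its log2 values (probe set 10936215) were 10.86 and 10.78 with Gld2 shRNA, against 11.18 and 11.14 with scrambled shRNA. Both knockdown cultures were thus below both controls, with 0.274 between the nearest cultures of the groups. The means were 10.82 ± 0.0565 with Gld2 shRNA and 11.16 ± 0.0303 with scrambled shRNA (SD, n = 2 each), a difference of -0.33 (standard error 0.0643) with a 95% interval from -0.49 to -0.18. Gria3 was at 79.3% of the control level. Its adjusted limma p of 0.04999 lay just inside the threshold, and Gria3 ranked 592 by p among the 594 genes called. The call was lost without Gld2 shRNA replicate 2 (-0.29, limma adjusted p = 0.121) or without either control, scrambled shRNA replicate 1 (-0.31, 0.367) or replicate 2 (-0.36, 0.281).

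Gria2, the gene of the calcium-limiting subunit GluA2, had replicates that lay close together in both groups. It had log2 values of 12.62 and 12.62 with Gld2 shRNA, against 12.80 and 12.81 with scrambled shRNA (probe set 10823853). The cultures differed from each other by 0.00199 with Gld2 shRNA and by 0.00842 with scrambled shRNA, while 0.178 separated the groups. The difference was -0.18 (standard error 0.0587) with a 95% interval from -0.33 to -0.04, and it did not pass over all genes (limma, adjusted p = 0.134). Gria2 passed in 2 of 14 alternatives, at an adjusted p of 0.00161 where the prior variance was allowed to follow the level and at 0.0322 with genes dimmer than the median removed in limma. With the trend of each array with gene length removed it was at -0.08 (limma, adjusted p = 0.456).

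Gria4 and Gria1 did not pass the test either. Gria4, which encodes GluA4, had log2 values of 10.62 and 10.56 with Gld2 shRNA, against 10.85 and 10.73 with scrambled shRNA (probe set 10914643). The groups did not overlap, but the scrambled shRNA cultures differed by 0.120, more than the 0.114 between the nearest cultures of the groups. Its difference was -0.20 (standard error 0.0698; limma, adjusted p = 0.155). Gria1, which encodes GluA1, the subunit most tied to activity-dependent insertion at synapses, had log2 values of 12.51 in both cultures with Gld2 shRNA, against 12.69 and 12.61 with scrambled shRNA (probe set 10733723). Here too both knockdown cultures were the lower ones. The difference was -0.14 with a 95% interval from -0.29 to 0.02 (limma, adjusted p = 0.233).

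The balance among the pore subunits was compared within arrays, where shifts shared by 2 genes cancel. The log2 value of Gria1 minus that of Gria3 was 1.646 and 1.727 with Gld2 shRNA, against 1.504 and 1.471 with scrambled shRNA, so the groups did not overlap and the means differed by 0.20. Gria2 minus Gria3 was 1.76 and 1.84 with Gld2 shRNA, against 1.62 and 1.67 with scrambled shRNA, with means that differed by 0.15. Gria3 minus Gria4 was 0.25 and 0.22 with Gld2 shRNA, against 0.33 and 0.41 with scrambled shRNA, a difference of means of -0.13. The absolute size of such a value also depends on the probes, and the change between groups is what can be read from it. In each of the 3 pairs that include Gria3 the knockdown cultures lay on the side of less Gria3. The direction of these differences of means follows from the larger fall of Gria3 given above. The 3 pairs share that gene and are not separate evidence. Of the pairs without Gria3, Gria1 minus Gria2 and Gria1 minus Gria4 differed by 0.05 and 0.06 with groups apart, and Gria2 minus Gria4 by 0.02 with groups that overlapped. Over these 6 pairs the exact two-sided permutation test gave p = 0.333 for 5 and 1 for the other (0.4 and 1 after Benjamini-Hochberg adjustment over the 6), and 0.333 is the smallest p that 2 against 2 cultures allow. After cyclic loess, another normalization between arrays, the differences of Gria1 minus Gria3 and Gria2 minus Gria3 were 0.13 and 0.08. Single cultures also moved these values: Gria1 minus Gria2 ran from 0.0045 without scrambled shRNA replicate 2 to 0.089 without replicate 1, and Gria1 minus Gria4 from 0.037 without Gld2 shRNA replicate 2 to 0.091 without replicate 1.

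**Figure D2:**
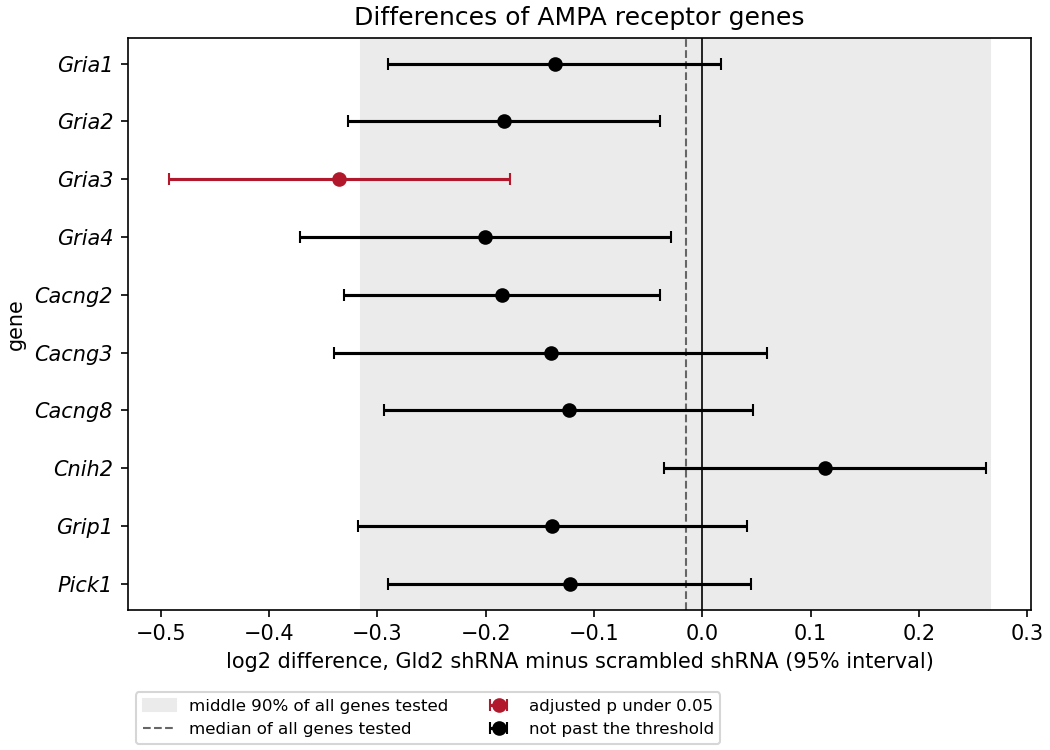
Points give the log2 difference (Gld2 shRNA minus scrambled shRNA) of each AMPA receptor gene with its 95% interval from limma, the grey band holds the middle 90% of all genes tested and the dashed line their median. Gria3, in red, has a difference of -0.33 and an interval from -0.49 to -0.18, and the point of Gria3 alone lies outside the grey band, which runs from -0.31 to 0.27.

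The auxiliary subunit genes split by sign, and none of the 4 passed the test (limma, with Cacng2 alone at an unadjusted p under 0.05). Cacng2, which encodes stargazin, the TARP found through the stargazer mouse, had log2 values of 11.84 and 11.81 with Gld2 shRNA, against 12.01 and 12.02 with scrambled shRNA (probe set 10905264). The groups were 0.164 apart, more than the 0.0337 between cultures with Gld2 shRNA and the 0.00773 between those with scrambled shRNA. The difference was -0.19 with a 95% interval from -0.33 to -0.04 (limma, adjusted p = 0.134). Cacng8, the gene of the TARP enriched in the hippocampus, had log2 values of 11.41 and 11.39 with Gld2 shRNA, against 11.59 and 11.46 with scrambled shRNA, a difference of -0.12 (95% interval from -0.29 to 0.05). The controls of Cacng8 differed from each other by 0.128, more than the 0.0523 between the groups, and its difference was -0.06 without scrambled shRNA replicate 1 and -0.19 without replicate 2. Cacng3, a related TARP gene, had log2 values of 11.10 and 10.91 with Gld2 shRNA, against 11.17 and 11.11 with scrambled shRNA. Its difference of -0.14 (95% interval from -0.34 to 0.06) came mostly from 1 culture, since Gld2 shRNA replicates 1 and 2 were at -0.05 and -0.23 relative to the control mean.

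Cnih2, which encodes the cornichon protein that helps AMPA receptors leave the endoplasmic reticulum, was the member on the higher side. It had log2 values of 13.71 and 13.66 with Gld2 shRNA, against 13.57 and 13.58 with scrambled shRNA (probe set 10727728). Both knockdown cultures lay above both controls by at least 0.0798. The difference was 0.11 with a 95% interval from -0.04 to 0.26 and did not pass (limma, adjusted p = 0.290). Cyclic loess left it at 0.05.

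Neither of the anchoring protein genes passed the test (limma, 0 of 2 at an unadjusted p under 0.05). Grip1, whose protein ties GluA2 and GluA3 to motor proteins and scaffolds, had log2 values of 10.53 and 10.40 with Gld2 shRNA, against 10.64 and 10.57 with scrambled shRNA. Pick1, whose protein takes part in receptor internalisation, had log2 values of 10.17 and 10.09 with Gld2 shRNA, against 10.21 and 10.30 with scrambled shRNA. In both genes the knockdown cultures were the lower ones by a margin of under 0.04, smaller than the distance between cultures of a group. The differences were -0.14 (95% interval from -0.32 to 0.04) for Grip1 and -0.12 (95% interval from -0.29 to 0.05) for Pick1, with adjusted p of 0.286 and 0.308 in limma. With 1 culture left out, Grip1 ran from -0.20 (without Gld2 shRNA replicate 1) to -0.07 (without Gld2 shRNA replicate 2) and Pick1 from -0.17 (without scrambled shRNA replicate 1) to -0.08 (without scrambled shRNA replicate 2). After cyclic loess they were at -0.07 and -0.04.

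The differences were set beside gene length, with which they varied over the whole array. Genomic length placed Gria1, Gria2, Gria3, Gria4, Cacng2 and Grip1 in the longest decile of genes, where the median difference was -0.12 and 8.43% of genes were called lower. Gria1 at -0.14 and Grip1 at -0.14 lay close to that median, Gria2 at -0.18, Cacng2 at -0.19 and Gria4 at -0.20 somewhat below it, and Gria3 at -0.33 farthest below. Cacng3, with 95887 bp, was at -0.14 in a decile with a median of -0.09. Cnih2, with 5684 bp the shortest member, was in a decile with a median of 0.03. Cacng8 and Pick1, of middle length at 20237 and 20386 bp, had differences of -0.12 in a decile with a median of -0.01. With the trend of each array with length removed, Gria3 was at -0.20 and no longer passed (limma, adjusted p = 0.116), Gria1 and Grip1 changed sign to 0.01 and 0.04, and the median of the members was -0.06. Gria2 and Cacng2 were then at -0.08 and Gria4 and Cacng3 at -0.04. Cacng8 and Pick1 were both at -0.10 and Cnih2 at 0.08, having moved less than the other members. By level instead of length, the decile medians were 0.01 for Gria1, Gria2, Cacng2 and Cnih2, -0.05 for Gria3, Cacng3 and Cacng8, -0.08 for Gria4 and Grip1, and -0.10 for Pick1.

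**Figure D3:**
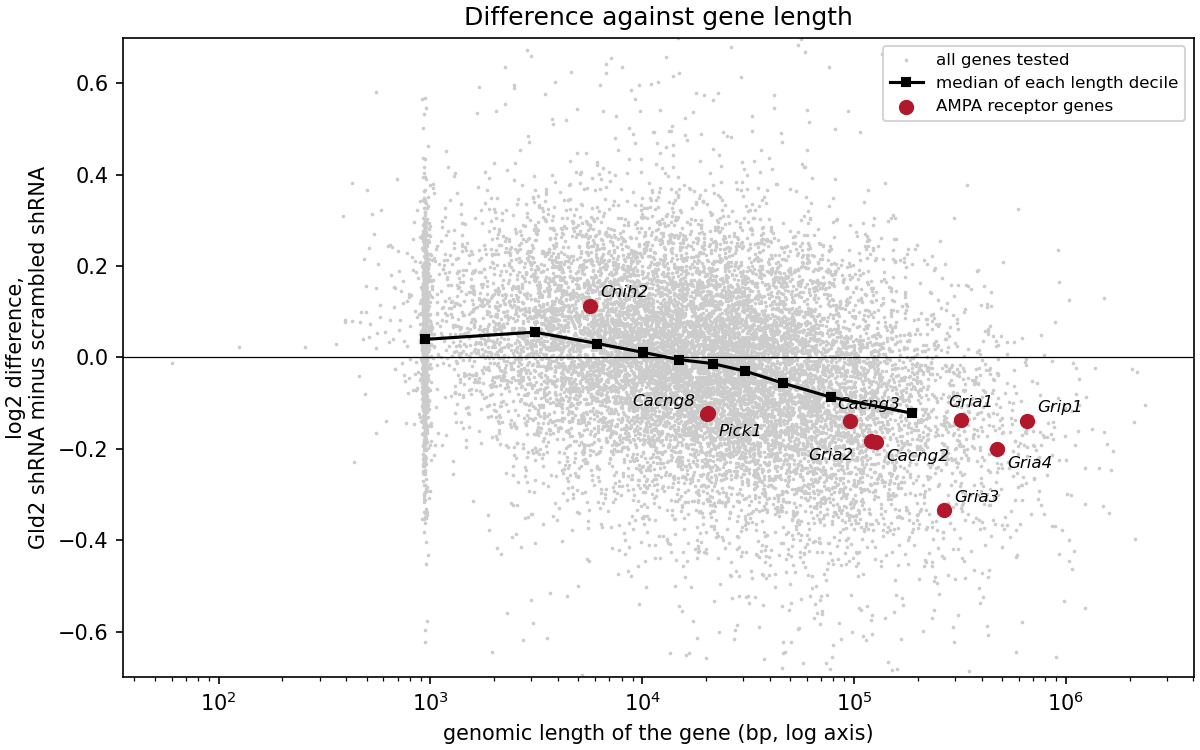
Each grey point is a gene, with its genomic length on a log axis and its log2 difference (Gld2 shRNA minus scrambled shRNA), the black squares are medians of length deciles, and the red points are the AMPA receptor genes. The squares reach -0.12 in the longest decile, near Gria1 and Grip1, while Gria3 lies at -0.33, and 137 genes beyond a difference of 0.7 in either direction are not drawn.

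Of the cell type markers measured, 1 passed the test, while 4.1% of all genes did. At an unadjusted p under 0.05, limma gave 16.2% of all genes lower and 9.24% higher. None of the 6 pan-neuronal, 4 excitatory and 5 inhibitory neuron markers measured passed the test (limma, with 1, 1 and 2 lower and 0 higher at an unadjusted p under 0.05), and their median differences were -0.04, -0.08 and -0.15. The summed linear level of the excitatory markers was 25567 to 25591 with Gld2 shRNA, against 26613 to 26945 with scrambled shRNA, and that of the inhibitory markers was 11978 to 12426 with Gld2 shRNA, against 13279 to 13301 with scrambled shRNA. All 3 neuronal sums were thus lower in both knockdown cultures, but single markers were not uniform, and each list had 1 marker with a difference above 0. Differences ran from -0.16 to 0.03 for pan-neuronal, -0.21 to 0.02 for excitatory and -0.24 to 0.01 for inhibitory markers. The 7 astrocyte markers, from glial cells that also express AMPA receptor genes, summed to 35715 to 36923 with Gld2 shRNA, against 36387 to 36544 with scrambled shRNA, which overlapped, with a median difference of 0.05 and 1 marker called, the gap junction gene Gja1 (-0.39). The 7 oligodendrocyte lineage, 7 microglia and 6 endothelial and mesenchymal markers had median differences of 0.03, 0.12 and 0.06 with 0 called (limma, 1, 0 and 1 lower and 0, 1 and 2 higher at an unadjusted p under 0.05). Microglia markers summed to 1497 to 1655 with Gld2 shRNA, against 1415 to 1456 with scrambled shRNA. These markers were dim, in level deciles 2 to 5, where the median differences of all genes were 0.08, 0.10, 0.05 and -0.06. Sums of oligodendrocyte lineage markers overlapped, at 6710 to 6935 with Gld2 shRNA, against 6651 to 6823 with scrambled shRNA, and so did those of endothelial and mesenchymal markers, at 4123 to 4410 with Gld2 shRNA, against 4215 to 4398 with scrambled shRNA. A sum mostly reflects the brightest markers of a list. By mean log2 level the endothelial and mesenchymal markers lay apart, at 8.86 and 8.89 with Gld2 shRNA, against 8.82 and 8.84 with scrambled shRNA. The oligodendrocyte lineage and astrocyte markers overlapped by that measure too. The array values have no zero, and the part of cell composition in the AMPA receptor differences was not tested.

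Other genes of AMPA receptor assembly, transport and mRNA control mostly did not pass. Of 48 genes listed for these roles 37 were measured, of which 2 fell (Fmr1 and Dlg1), 0 rose and 35 did not pass, with 8 lower and 2 higher at an unadjusted p under 0.05 by limma. Over all genes 2.41% fell and 1.69% rose, and 16.2% were lower and 9.24% higher at that unadjusted p. Their median difference was -0.07, against -0.02 over all genes and -0.14 for the 10 members. Fmr1, the gene of the RNA-binding protein FMRP, had log2 values of 9.23 and 9.11 with Gld2 shRNA, against 9.61 and 9.58 with scrambled shRNA. Its knockdown cultures were both lower, with a difference of -0.42 (standard error 0.0689; limma, adjusted p = 0.0356). Dlg1, which encodes SAP97, a scaffold that binds GluA1, had log2 values of 9.59 and 9.47 with Gld2 shRNA, against 9.99 and 9.90 with scrambled shRNA, a difference of -0.41 (limma, adjusted p = 0.0417). Both calls were lost without Gld2 shRNA replicate 2 and without either scrambled shRNA culture, at adjusted p from 0.0796 to 0.333 in limma. With the length trend removed Fmr1 still passed (adjusted p = 0.0381) and Dlg1 did not (0.0679), by the same test.

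Among further auxiliary subunits and interactors, 0 of 9 measured genes passed (limma, 1 lower and 0 higher at an unadjusted p under 0.05). The counts of this list and of the lists below stand beside 2.41% lower and 1.69% higher over all genes. At that unadjusted p, limma gave 16.2% of all genes lower and 9.24% higher. The TARP gene Cacng5 had a difference of -0.31, Olfm3, of the noelin family of receptor-binding secreted proteins, -0.18, and the TARP gene Cacng7 0.13, a positive value like that of Cnih2. Of the genes of receptor assembly in the endoplasmic reticulum, 0 of 5 passed (limma, 1 lower at an unadjusted p under 0.05). Sacm1l, a phosphoinositide phosphatase gene, had a difference of -0.36 with an adjusted p of 0.0644 in limma, while Cpt1c and Abhd6, whose proteins bind GluA subunits during assembly, were at -0.07 and -0.02. Of 20 genes of transport and anchoring, Dlg1 was the one that passed (limma, 4 lower and 1 higher at an unadjusted p under 0.05). The pentraxin gene Nptx2 had a difference of -0.25, the kinase anchor gene Akap5 -0.28, and Lgi1, whose secreted product links receptor complexes across the cleft, 0.27, none of them past the threshold. The common scaffold gene Dlg4, which encodes PSD-95, was at -0.04. Of the genes that act on the subunit mRNAs, the editing enzyme genes Adarb1 and Adar were at -0.20 and 0.19, with adjusted p of 0.135 and 0.143 in limma. ADARB1 (ADAR2) edits the pore codon of Gria2, and ADAR (ADAR1) has an interferon-induced form. In both genes the 2 groups did not overlap, with Gld2 shRNA below for Adarb1 and above for Adar. Over all genes the groups lay apart in those directions in 34.5% and 24% of cases.

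The other ionotropic glutamate receptor families give the nearest comparison. Of 6 measured kainate and delta receptor genes 0 passed (limma, 4 lower and 0 higher at an unadjusted p under 0.05), with a median difference of -0.23, all 6 below 0 and all with groups that did not overlap. Over all genes 2.41% fell and 16.2% were lower at that unadjusted p, 53.8% were below 0, and 34.5% had both Gld2 shRNA cultures below both scrambled shRNA cultures. The kainate receptor genes Grik1 and Grik3 were at -0.36 and -0.29, and the delta receptor gene Grid1 at -0.29, with adjusted p of 0.0796, 0.0757 and 0.0872 in limma. With the length trend removed they were at -0.20, -0.16 and -0.11, and Grid1 was at -0.18 as the mean of its probe sets. Of 7 NMDA receptor genes 2 fell, Grin2a (-0.59) and Grin3a (-0.34), 0 rose and 5 did not pass, with a median of -0.15 and, in limma, 3 lower and 0 higher at an unadjusted p under 0.05. Both calls were lost without scrambled shRNA replicate 1 (limma, adjusted p = 0.147 for Grin2a and 0.357 for Grin3a) or replicate 2 (0.186 and 0.281), with all probe sets tested (0.0549 and 0.102) and without moderation (0.278 for both). The call of Grin3a was also lost without Gld2 shRNA replicate 2 (0.117), after cyclic loess (0.0507), with the replicate block (0.0516) and with the length trend removed (-0.21, 0.100). Grin2b was at -0.24 (-0.08 with the length trend removed), Grin3b at 0.19 and Grin2d at -0.15, without passing. The median of the pore subunit genes Gria1 to Gria4 was -0.19. No test of a difference between these families was made, and all of them lie in the same 4 arrays.

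The genes whose pattern over the 4 arrays was nearest to that of Gria3, by Euclidean distance after subtraction of each gene's mean, were Adarb2, Grin3a and Setdb2, at distances of 0.00383, 0.00825 and 0.0117 log2 units. Adarb2 belongs to the family of RNA editing enzymes, Grin3a encodes an NMDA receptor subunit and Setdb2 a protein of the histone methyltransferase family. Genes picked for closeness to Gria3 must have differences near its own, and theirs were all -0.34. Setdb2 lay just outside the threshold (limma, adjusted p = 0.0502), and with 4 arrays many genes can come this close.

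**Figure D4:**
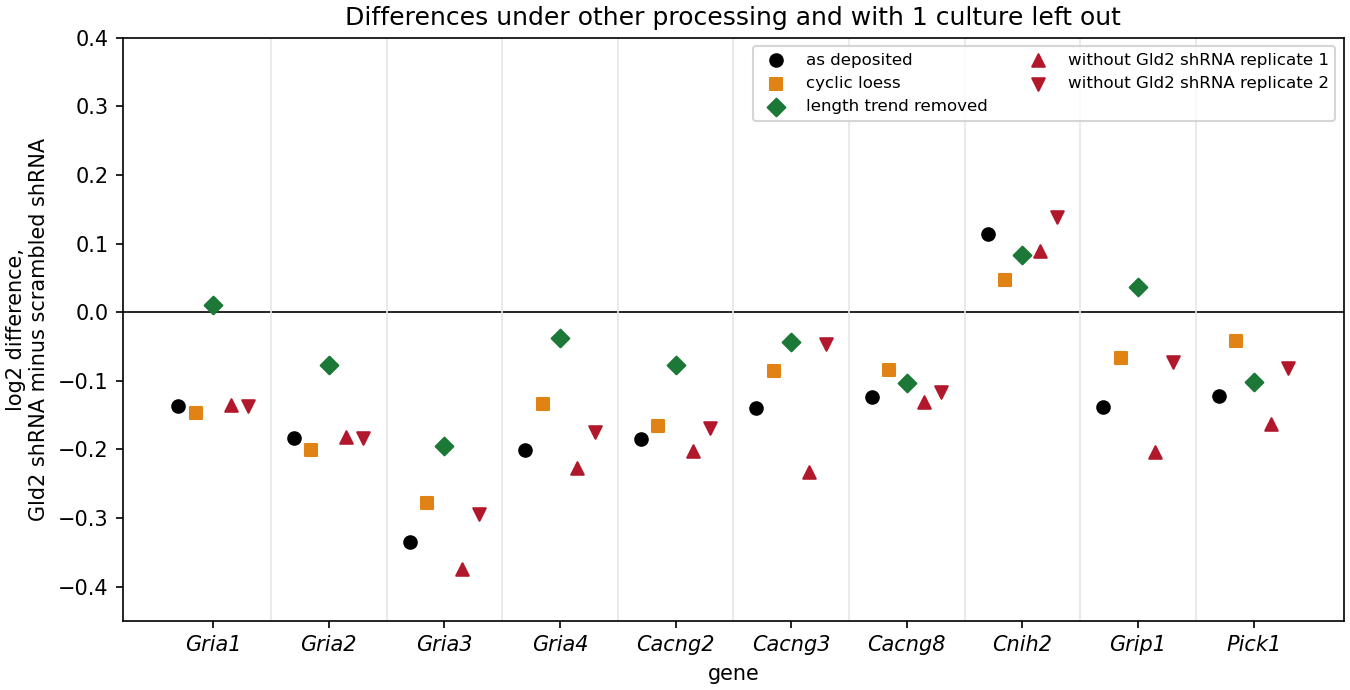
Points give the log2 difference (Gld2 shRNA minus scrambled shRNA) of each AMPA receptor gene as deposited, after cyclic loess, after removal of the trend with gene length, and without either Gld2 shRNA culture. Gria3 stays below 0 in all 5, from -0.37 to -0.20, whereas Gria1 and Grip1 lie above 0 with the length trend removed, at 0.01 and 0.04.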

How the data were processed

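Poly(A) RNA of 4 cultures was measured on Affymetrix whole-transcript arrays. The table holds the authors' log2 values, which the submitters' processing notes credit to RMA and affy. Settings, versions and the arrays run together are not stated in these sources, and the log2 scale was read from the values (3.23 to 14.3). RMA brings arrays to a common distribution, so a shift shared by most genes would be removed. Detection calls and batches were not analysed here, and with 4 arrays the precision is limited.

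Of 28826 probe sets, 15209 had 1 gene symbol, 306 several and 13311 none; 15178 identifiers matched RefSeq (GRCr8) and 0 symbols changed. Each gene was represented by its probe set with the highest mean over the 4 arrays. All 14497 genes were fitted with lmFit and eBayes (limma 3.58.1, R 4.3.3), two-sided, Benjamini-Hochberg, threshold 0.05, with 2 residual and 3.96 prior degrees of freedom. The method was tested on simulated data, with variances drawn from the fitted variance distribution. How often it recovered differences as small as those of the members is not given here. The members and gene lists were chosen with earlier results of these data known. Named were Tent2, the members, listed genes past the threshold and up to 3 more per list by smallest p, and the 3 genes nearest to a called member; Gja1 and Dlg4 were named after their values were seen. Groups follow the labelled treatment, and replicate numbers follow accession order. The 14 alternatives were a level-dependent prior variance, 2 filters on dim genes, cyclic loess, median centring, the mean of probe sets, all probe sets, a replicate block, no moderation, removal of a lowess trend (span 0.3) on genomic length, and leaving out each culture.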

Additional observations from a re-analysis of the deposited data

How the results depend on the processing

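Leaving out a culture gave 0 to 1 AMPA receptor genes past the threshold, 0 to 7 of the 37 assembly, transport and mRNA control genes and 85 to 2689 of all genes; in these fits only the complete group supplies the spread. The 3 counts were 1, 2 and 594 as reported. They were 6, 11 and 2232 with a level-dependent prior variance (members: Gria1 to Gria4 and Cacng2 lower, Cnih2 higher), 4, 8 and 1596 with genes under the median left out, 0, 0 and 313 with all probe sets tested, and 0, 0 and 1 without moderation. With a filter at the 25th percentile of level the last 2 were 5 and 1297, and with median centring 6 and 1925. With the length trend removed the first 2 were 0 and 1. The replicate block, on the final digit of the titles, gave 0 members (Gria3 at an adjusted p of 0.0528) and moved no other of these counts by more than 1.5 times; the deviations of like-numbered cultures correlated at 0.106, and with 2 pairs this does not show that the numbers pair the cultures. Where 0 members passed, limma gave 1 to 4 at an unadjusted p under 0.05, and 5 to 10 of the 37 where 0 of those passed. Gria3 passed in 7 of 14 alternatives, with differences from -0.37 to -0.20. With the length trend removed Gria1, Grip1 and Abhd6 changed sign to 0.011, 0.037 and 0.0398, and Abhd6 ran from -0.047 to 0.0031 with 1 culture left out. Within arrays, cyclic loess gave 0.13 for Gria1 minus Gria3, 0.078 for Gria2 minus Gria3, -0.014 for Gria1 minus Gria4 and -0.067 for Gria2 minus Gria4, the last at -0.039 with the length trend removed and from -0.047 to 0.082 with 1 culture left out. The causes were not tested.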
